A study of Solanum lycopersicum with 9 samples.

Results

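Tomato seeds of an SlLBD40 knockout line were compared directly with seeds of an SlWRKY37 knockout line, both sampled once they had imbibed, that is taken up water, for 6 h. The comparison takes 6 of the 9 libraries of the series, 3 from each knockout, chosen by the genotype that their labels give, and covers every gene of the deposited table. The other 3 libraries are wild type (WT) seeds of the same time point, which shared the fit and serve as the reference level. The labels name no cultivar, allele, line number or way of making the knockouts, and the controls carry no other genetic change that the labels name. Nor do they tell if replicates stem from different plants or seed lots, and p-values therefore measure only the spread between these libraries, which may be technical.

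Values are levels in FPKM, a read density that is corrected for transcript length and for the depth of the library. Of 40229 genes in the table, the 18346 with a mean of at least 1 FPKM over the 9 libraries were tested with limma on log2(FPKM + 1). The p of a called gene lay below 0.05 after Benjamini-Hochberg adjustment across the whole tested set. Differences are LBD40 knockout minus WRKY37 knockout, so a positive log2 difference means a higher level in the LBD40 knockout, and SE is the standard error of that difference. Each gene goes by its description and chromosome, and rows that share both are told apart as copies, counted in the order of the table.

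LBD40 is a LOB domain factor and WRKY37 a WRKY factor, and both kinds of plant protein bind DNA and switch other genes on or off. LOB domain factors are best known for roles in organ boundaries and lateral roots, and WRKY factors for defence and for responses to stress and abscisic acid. A dry seed holds RNA that was stored as it matured, much of it for storage proteins, oil bodies and the late embryogenesis abundant (LEA) proteins of drying. During imbibition this stored RNA is broken down while genes for respiration, use of oil reserves, cell wall loosening and later DNA synthesis come on, and gibberellin and abscisic acid act against each other on the pace of that change.

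The 9 libraries summed to between 856291 and 918103 FPKM over the listed genes, and 23206 to 24507 genes had a value above 0. Steps between the lowest values gave the relative depth of the libraries, which ran from 79.5 to 100% of the deepest one; the read counts themselves are not known, so no counting interval is given. Libraries correlated across tested genes, which are not replicates, at 0.9728 to 0.9778 inside the LBD40 knockout, at 0.9596 to 0.9669 inside the WRKY37 knockout and at 0.9083 to 0.9477 between both. WRKY37 knockout replicate 1 stood nearer to the LBD40 knockout (0.9365 to 0.9477) than replicates 2 and 3 did (0.9083 to 0.9281). Of 94 genes described as storage, oil body or LEA proteins, taken as markers of seed tissue, 22 were at 0 in all 6 libraries, and the summed share of the list lay between 2.17 and 2.73% of the library in the LBD40 knockout. The range in the WRKY37 knockout was 2.51 to 4.47%. The ranges overlap, and WRKY37 knockout replicate 3 had the highest share.

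The row described as LOB domain-containing protein 40 on chromosome 5 had a level of 42.9, 43.9 and 36.1 FPKM in the LBD40 knockout and 4.77, 9.5 and 20.9 FPKM in the WRKY37 knockout, with 12.6 ± 7.44 (SD, n = 3) in WT. All 3 LBD40 knockout libraries lay above all 3 of the other knockout, and the log2 difference was 1.93 (SE 0.48, adjusted p = 0.017). This call was lost without LBD40 knockout replicate 1 (adjusted p = 0.0634), LBD40 knockout replicate 2 (adjusted p = 0.0605) or WRKY37 knockout replicate 2 (adjusted p = 0.0585). The row described as WRKY transcription factor 37 on chromosome 1 lay below the mean of 1 FPKM, at 1.11, 1.89 and 0.74 FPKM in the LBD40 knockout, 0.23, 0 and 0 in the WRKY37 knockout and 0.28, 0.7 and 0.92 in WT. In the fit without that filter it was lower in the WRKY37 knockout than in the LBD40 knockout (log2 difference 1.04, SE 0.217, adjusted p = 0.0175) and not called against WT (adjusted p = 0.181). Gene IDs are shortened in the table, so whether these rows are the edited genes was not settled, and an edited gene can keep its RNA. The row named LBD40 was higher than WT in the libraries labelled as its knockout (log2 difference 1.78, adjusted p = 0.0169). That is the reverse of a loss of RNA, but the level of RNA does not show whether a knockout worked. Directions for that knockout are those of the libraries so labelled.

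Between the knockouts 4953 of 18346 genes were called (27%), of which 2363 were higher in the LBD40 knockout (12.9% of tested genes) and 2590 lower (14.1%). The higher genes differed by more: their median log2 difference was 0.95, against -0.644 for the lower genes, while the median over all tested genes was -0.0813. Among called genes, 1079 were higher and 420 lower by at least 1 on the log2 scale, and 179 were higher and 69 lower by at least 2. The groups did not overlap for 4850 of the called genes, beside 7760 of all tested genes (42.3%). Of the tested genes, 660 passed the filter only through the knockout where they were higher, with a mean below 1 FPKM over the other 6 libraries. Of that kind were 181 of the genes called higher and 59 of those called lower, and their test is no support. They also enter the medians and counts above, more of them on the higher side. The number of calls and their balance depended on single libraries. Without LBD40 knockout replicate 1 there were 1434 higher and 848 lower genes. Leaving out replicate 2 of that knockout gave 1418 and 1120, and leaving out WRKY37 knockout replicate 2 gave 1878 and 1397. With the WT libraries left out of the fit, 1824 were higher and 1323 lower. Counts of the gene lists below stand beside the 12.9% higher and 14.1% lower of all tested genes. Where a library is left out, they stand beside the totals of that fit. Some list counts include genes that passed the filter only through the knockout where they were higher.

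**Figure D1:**
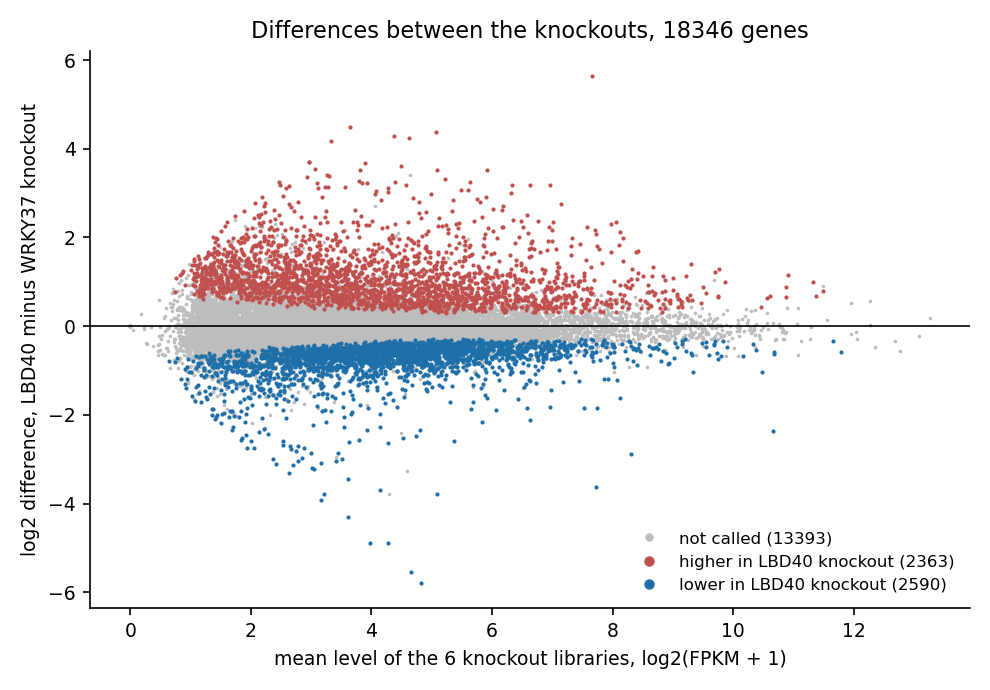
Each point is 1 of 18346 tested genes, with its mean level over the 6 knockout libraries (log2(FPKM + 1)) on the x axis and the log2 difference, LBD40 minus WRKY37 knockout, on the y axis. The 2363 genes called higher reach larger differences than most of the 2590 called lower, with the Rubisco small subunit gene highest at 5.64.

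The WT level lay nearer to the WRKY37 knockout for 75.8% of the genes called higher and 81.5% of those called lower, beside 67.1% of all tested genes. Against WT, 37.2% of tested genes were called in the LBD40 knockout (18% higher, 19.2% lower) and 9.38% in the WRKY37 knockout (4.82% higher, 4.56% lower), in comparisons that share the WT libraries. Of the 2363 genes higher in the LBD40 knockout, 1484 were higher than WT there and not called in the WRKY37 knockout. A further 238 were lower than WT in the WRKY37 knockout and not called in the LBD40 knockout. Of the 2590 lower genes, 1708 were lower than WT in the LBD40 knockout alone and 159 were higher than WT in the WRKY37 knockout alone, where "alone" means that the other knockout was not called. Neither knockout was called against WT for 444 of the higher and 600 of the lower genes.

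Among the genes with the largest positive differences were one for carbon fixation and one for DNA methylation. RuBP carboxylase small subunit on chromosome 2, part of the carbon-fixing enzyme Rubisco, had 377, 457 and 351 FPKM in the LBD40 knockout and 13.5, 7.41 and 3.05 in the WRKY37 knockout. The groups were far apart (log2 difference 5.64, SE 0.58, adjusted p = 0.000302), while the WT libraries spread over 130, 58.7 and 351 FPKM. The CLASSY 4-like SNF2 protein gene on chromosome 1 belongs to a family that in Arabidopsis guides small RNA production for DNA methylation, and had 21.8, 19.7 and 27.3 FPKM against 0.03, 0 and 0.14. It passed the filter only through the LBD40 knockout, so no test of it is given. WT was as low as the WRKY37 knockout for this gene, at 0.203 ± 0.136 FPKM (SD, n = 3). The first of the unplaced rows for subunit beta'' of DNA-directed RNA polymerase, named after the plastid's own enzyme, had 55.1, 32.8 and 47.1 FPKM against 0, 0.95 and 5.86 (log2 difference 4.25, SE 0.73, adjusted p = 0.00359).

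Several genes of this group act on walls, lipids and defence. Mannan endo-1,4-beta-mannosidase 1 on chromosome 2 (copies 2 and 3), enzymes that cut the mannan of seed cell walls, had 12.7, 18.4 and 9.7 FPKM against 0.23, 0 and 0.03 in 2 rows with the same 9 values, which also passed the filter only through that knockout. GDSL-motif lipase/hydrolase family protein 1 on chromosome 2, of a family that splits esters, had 39.4, 53.1 and 29.1 FPKM against 4.23, 2.14 and 1.14 (log2 difference 3.62, SE 0.31, adjusted p = 0.000102). For the GDSL gene the lowest LBD40 knockout library lay well above the highest of the other knockout. The putrescine N-methyltransferase row on chromosome 6, described by an enzyme of polyamine and alkaloid metabolism, had 64.5, 55.6 and 64.6 FPKM against 3.39, 4.57 and 5.52 (log2 difference 3.53, SE 0.29, adjusted p = 8.55e-05). Among antimicrobial peptides, Defensin protein on chromosome 7 (copy 5) had 105, 107 and 117 FPKM against 10.1, 7 and 9 (log2 difference 3.52, SE 0.25, adjusted p = 4.5e-05). Here WT was the highest group at 193 ± 83.9 FPKM (SD, n = 3), so that both knockouts lay below it and the WRKY37 knockout lowest.

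Zinc finger protein on chromosome 11 (copy 6) had 26.4, 15.6 and 12.2 FPKM in the LBD40 knockout and was listed at 0 in all 3 WRKY37 knockout libraries. In all, 10 tested genes were listed at 0 in the WRKY37 knockout and above 0 in every LBD40 knockout library, and 17 the other way round. ATP-dependent DNA helicase on chromosome 4, with 11.7, 10.2 and 5.08 FPKM, and Tyramine N-feruloyltransferase 10/30 on chromosome 8 (copy 3), with 2.85, 3.27 and 5.61 FPKM, were further genes of the first kind. Like the zinc finger gene, both passed the filter only through the LBD40 knockout. The second kind included tyrosine sulfotransferase-like protein on chromosome 12 (copy 1), an enzyme that puts sulfate on peptides, with 27.1, 38.4 and 23.2 FPKM in the WRKY37 knockout (adjusted p = 1.03e-05). NAP1-related protein 2 on chromosome 12 (copy 1), a histone chaperone, had 23.1, 73.8 and 13.3 FPKM there (adjusted p = 0.000479). These genes were also present in WT, at 16.6 ± 5.97 and 15.5 ± 8.26 FPKM (SD, n = 3). By contrast 50S ribosomal protein L33, chloroplastic on chromosome 9 was listed at 0 in WT as well and had 13.3, 9.52 and 3.18 FPKM in the WRKY37 knockout alone, through which it passed the filter.

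Other genes with large negative differences had a measured level in both knockouts. Cellulose synthase on chromosome 12 (copy 2), of the family that spins the cellulose of the wall, had 3.43, 3.38 and 3.71 FPKM in the LBD40 knockout and 45.8, 71.5 and 69.4 in the WRKY37 knockout (log2 difference -3.78, SE 0.17, adjusted p = 1.9e-06). WT, at 48.7 ± 4.12 FPKM (SD, n = 3), lay with the WRKY37 knockout. Of the detoxifying enzymes, Glutathione S-transferase on chromosome 1 (copy 1) had 18.6, 26.5 and 55.4 FPKM against 462, 334 and 369 (log2 difference -3.63, SE 0.33, adjusted p = 0.000151). In this case WT lay with the LBD40 knockout at 27.9 ± 6.85 FPKM (SD, n = 3). BolA protein on chromosome 12, of a family tied to iron and sulfur handling, had 1.12, 1.23 and 0.22 FPKM against 20, 8.61 and 16.3 (log2 difference -3.08, SE 0.32, adjusted p = 0.000303). Fermentation in oxygen-poor tissue uses alcohol dehydrogenase, and alcohol dehydrogenase-2 on chromosome 9 had 44.7, 54.5 and 81 FPKM against 227, 322 and 1160 (log2 difference -2.89, SE 0.5, adjusted p = 0.00366). Only WRKY37 knockout replicate 3 lay as high as WT, at 963 ± 236 FPKM (SD, n = 3), and without it the log2 difference was -2.19 (adjusted p = 0.00192).

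**Figure D2:**
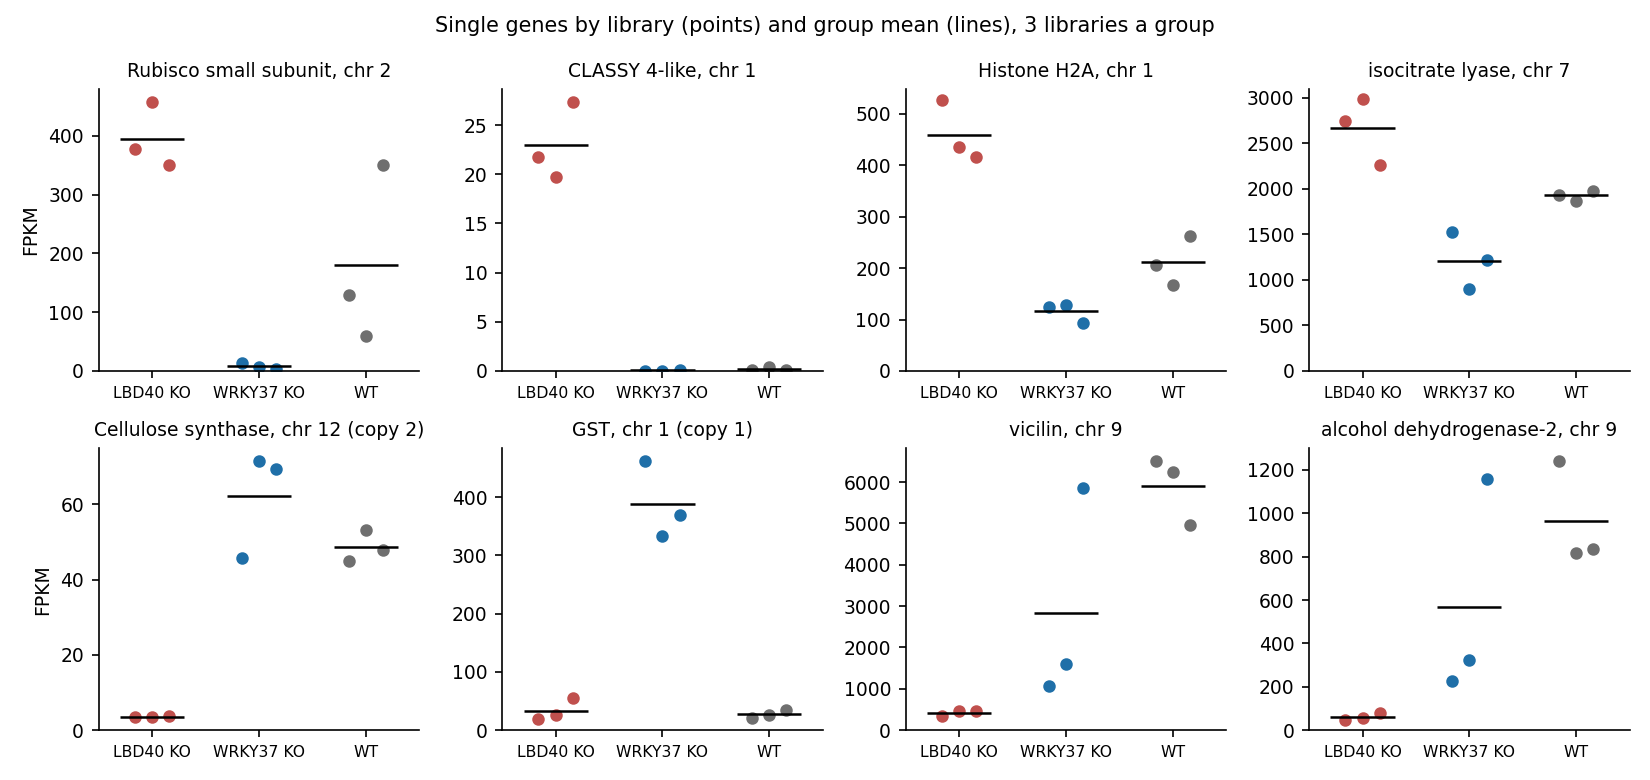
Levels in FPKM of 8 genes in each library (points) with the mean of each group (line), for the LBD40 knockout, the WRKY37 knockout and WT, each axis starting at 0. The upper genes are higher in the LBD40 knockout and the lower genes lower; WT lies with the WRKY37 knockout for CLASSY 4-like and cellulose synthase, with the LBD40 knockout for the glutathione S-transferase, and WRKY37 knockout replicate 3 reaches 5860 FPKM of vicilin.

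Histones, which package DNA and are made mostly when DNA is copied, were the list with the largest share of genes called higher, among 63 lists with at least 3 tested members. Of 55 tested histone genes 40 were higher in the LBD40 knockout, 1 was lower and 14 were not called, with a median log2 difference of 1.26 that ran from 0.723 to 1.37 over 17 alternative settings. All 5 classes took part: 11 of 13 H2A genes, 10 of 13 H2B, 8 of 14 H3, 9 of 12 H4 and 2 of 3 linker H1 genes were higher. Histone H2A on chromosome 1 had 527, 436 and 416 FPKM against 124, 129 and 94.2 (log2 difference 1.99, SE 0.18, adjusted p = 0.000136). Histone H1 on chromosome 9 (copy 2) had 229, 200 and 193 FPKM against 57.4, 47.1 and 35 (log2 difference 2.16, SE 0.19, adjusted p = 0.000133). For both genes WT lay between the knockouts, at 212 ± 46.8 and 85.8 ± 17.6 FPKM (SD, n = 3), and differed from each of them (adjusted p = 0.00149 and 0.0151 for H2A, 0.00116 and 0.019 for H1). Histone H3 on chromosome 12 had 27.4, 34.6 and 23.8 FPKM against 3.69, 2.75 and 1.98 (log2 difference 2.97, SE 0.22, adjusted p = 5.37e-05). The summed share of the histones was 1.28, 1.16 and 1.2% of the library in the LBD40 knockout and 0.784, 0.746 and 0.682% in the WRKY37 knockout, without overlap (exact two-sided permutation p = 0.1, the smallest that 3 against 3 can give). In bulk RNA, more cells that express these genes and more of this RNA per cell cannot be told apart.

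Of 44 tested genes of the machinery that copies DNA 1 was higher and 10 were lower (median -0.229). The lower count was 2 without LBD40 knockout replicate 1 or replicate 2 and 4 without WRKY37 knockout replicate 2. DNA polymerase delta subunit 4 on chromosome 5, a small subunit of a replicative polymerase, was the higher one, at 6.64, 7.27 and 5.05 FPKM against 0.73, 0.58 and 1.55 (adjusted p = 0.00133). Replication protein A subunit on chromosome 8, which coats single-stranded DNA, had 23.8, 27.2 and 24 FPKM against 37.5, 47.1 and 43.4 (log2 difference -0.74, SE 0.14, adjusted p = 0.00577). Cyclins and cell division kinases had 6 higher and 11 lower of 57, and the larger count changed sides in 1 of the 17 alternatives. Without LBD40 knockout replicate 1 the counts were 4 and 4, and without WT replicate 1 they were 5 and 7. Within them, Cyclin on chromosome 4 had 9.82, 8.43 and 8.79 FPKM against 0, 0.32 and 0, and passed the filter only through the LBD40 knockout. Cyclin-dependent kinase inhibitor on chromosome 12, which brakes cell division, had 67.5, 71.9 and 69.4 FPKM against 123, 123 and 96.7 (log2 difference -0.7, SE 0.13, adjusted p = 0.00447). Of 54 genes of DNA and histone methylation and Argonautes, 3 were higher and 16 lower (median -0.333; 6 lower without LBD40 knockout replicate 1 and 8 without replicate 2). The CLASSY 4-like and cytosine-5 DNA methyltransferase3L on chromosome 12 (38.1, 39.8 and 36.6 FPKM against 14.7, 17.2 and 6.87, adjusted p = 0.00384) were among the higher genes. Of the 3 higher genes 2, the CLASSY 4-like among them, passed the filter only through the LBD40 knockout.

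Photosystem, light-harvesting and Rubisco genes, taken as markers of green tissue, were mostly higher in the LBD40 knockout. Of 51 tested, 30 were higher, 2 lower and 19 not called; the median log2 difference of 1.204 ran from 0.111 to 1.754 over the alternatives. The higher count was 15 without LBD40 knockout replicate 1, 18 without its replicate 2 and 20 without WRKY37 knockout replicate 2. Chlorophyll A-B binding protein on chromosome 3, a light-harvesting antenna protein, had 15.2, 11.9 and 11.7 FPKM against 0.47, 0.51 and 0.09 (log2 difference 3.37, SE 0.36, adjusted p = 0.000345). Photosystem II reaction center X protein on chromosome 5 had 11, 18 and 13.9 FPKM against 2.15, 0.34 and 0 (log2 difference 3.22, SE 0.47, adjusted p = 0.00169). One of the lower genes, Photosystem I P700 chlorophyll a apoprotein A2 on chromosome 2, carries the name of a protein coded in plastids and was listed at 0 in the LBD40 knockout and in WT, with 2.82, 8 and 14 FPKM in the WRKY37 knockout. Both lower members and 4 of the 30 higher ones passed the filter only through the knockout where they were higher. The summed share of the markers was 0.102, 0.0955 and 0.0794% of the library in the LBD40 knockout against 0.0483, 0.0345 and 0.0327%, with 0.0519, 0.045 and 0.0878% in WT (exact two-sided permutation p = 0.1 between the knockouts). Of 186 such genes, tested or not, 71 were at 0 in all 6 knockout libraries. The part of this share in the other differences between the knockouts was not tested.

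Plastid ribosomal proteins moved the same way, with 13 higher and 1 lower of 32 (median 0.461). The higher count was 7 without LBD40 knockout replicate 1 and 8 without its replicate 2, and without WRKY37 knockout replicate 2 the median changed sign to -0.061. The lower gene was the L33 gene described above. 30S ribosomal protein S10, chloroplastic on chromosome 10 had 69.4, 62.6 and 62.6 FPKM against 37, 27.7 and 28.3 (log2 difference 1.05, SE 0.15, adjusted p = 0.00172). Mitochondrial respiratory chain genes had 24 higher and 1 lower of 101, with a median of 0.183. That count was 8 without LBD40 knockout replicate 1, 11 without replicate 2 and 14 without replicate 3. Alternative oxidase 1b on chromosome 8, which passes electrons to oxygen without pumping protons, had 7.38, 9.59 and 2.44 FPKM against 0.06, 0.26 and 0.27, and passed the filter only through the LBD40 knockout.

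Genes that turn seed oil into sugar were higher in the LBD40 knockout. Of 14 tested genes of peroxisomal beta-oxidation and the glyoxylate cycle 10 were higher and 1 lower, with a median log2 difference of 0.581. With LBD40 knockout replicate 1, its replicate 2 or WRKY37 knockout replicate 3 left out, 7 were higher. The fit of the 6 knockout libraries also had 7 higher, and the median ran from 0.498 to 0.668 over the alternatives. Isocitrate lyase LEU18678 on chromosome 7, a key enzyme of the glyoxylate cycle, had 2740, 2990 and 2260 FPKM against 1520, 895 and 1220 (log2 difference 1.16, SE 0.18, adjusted p = 0.00245). Malate synthase on chromosome 3 (copy 2), the next enzyme of that cycle, had 1120, 1110 and 936 FPKM against 712, 640 and 652 (adjusted p = 0.00462). Acyl-CoA oxidase/dehydrogenase on chromosome 10 (copy 1), of the enzymes that start beta-oxidation, had 153, 151 and 136 FPKM against 89.7, 72.8 and 60.1 (log2 difference 0.99, SE 0.16, adjusted p = 0.00263). The summed share of the list was 0.655, 0.66 and 0.533% of the library against 0.42, 0.278 and 0.329%, with 0.451, 0.421 and 0.471% in WT. No LBD40 knockout library overlapped with the WRKY37 knockout, and WT lay between the group means.

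RNA of the seed's protein stores was lower in the LBD40 knockout. Of 12 tested storage protein genes 1 was higher and 7 were lower (median -1.07, from -1.46 to -0.694 over the alternatives). Vicilin on chromosome 9, a globulin that feeds the seedling, had 336, 461 and 460 FPKM in the LBD40 knockout and 1060, 1590 and 5860 in the WRKY37 knockout (log2 difference -2.37, SE 0.49, adjusted p = 0.00796). WT had 5910 ± 822 FPKM (SD, n = 3), close to replicate 3 of the WRKY37 knockout and above its other libraries. Without that replicate the log2 difference was -1.64 (adjusted p = 0.00217), and the storage list had 1 higher and 6 lower genes. The list had 3 lower genes without LBD40 knockout replicate 1 or replicate 2. Vicilin-like protein antimicrobial peptides 2-1-like protein on chromosome 9 had 3.31, 2.57 and 6.33 FPKM against 13.8, 39.1 and 44.6 (log2 difference -2.64, SE 0.41, adjusted p = 0.00224). The summed storage share was 0.091, 0.105 and 0.137% of the library against 0.195, 0.264 and 1.01%, with 0.997 ± 0.141% (SD, n = 3) in WT. The 11-S seed storage protein on chromosome 1 (copy 3) was the one higher gene, at 4.76, 5.9 and 4.54 FPKM against 0.8, 0.22 and 0.34 (log2 difference 2.08, SE 0.25, adjusted p = 0.000601).

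The summed shares of oil body and LEA genes lay below every WT library in each knockout and overlapped between the knockouts. The summed share of oil body genes was 0.524, 0.517 and 0.421% of the library in the LBD40 knockout and 0.424, 0.367 and 0.687% in the WRKY37 knockout, which overlap (exact two-sided permutation p = 0.9), against 1.1 ± 0.158% (SD, n = 3) in WT. Of 14 tested genes 3 were higher and 2 lower, and the larger count changed sides in 5 of the 17 alternatives. Oleosin on chromosome 2, a coat protein of oil bodies, had 24.6, 27.1 and 51.9 FPKM against 95.6, 115 and 276 (log2 difference -2.12, SE 0.38, adjusted p = 0.00447). The oil body-associated protein 2A-like gene on chromosome 2 (copy 2) went the other way, at 182, 182 and 174 FPKM against 68.8, 64.2 and 129 (log2 difference 1.1, SE 0.21, adjusted p = 0.00619). LEA and dehydrin genes had 13 higher and 5 lower of 41 (median 0.23), with 7 higher without LBD40 knockout replicate 1 and 8 without its replicate 2 or WRKY37 knockout replicate 2. The most abundant called member was lower: Late embryogenesis abundant protein on chromosome 9 (copy 2) had 2850, 3050 and 2550 FPKM against 3910, 3550 and 5430 (log2 difference -0.59, SE 0.17, adjusted p = 0.0329). That call was lost in 8 settings, among them each that left out 1 LBD40 knockout library or WRKY37 knockout replicate 3. Late embryogenesis abundant protein on chromosome 2 (copy 1) was higher, at 460, 404 and 356 FPKM against 168, 217 and 215 (log2 difference 1.02, SE 0.15, adjusted p = 0.00185).

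**Figure D3:**
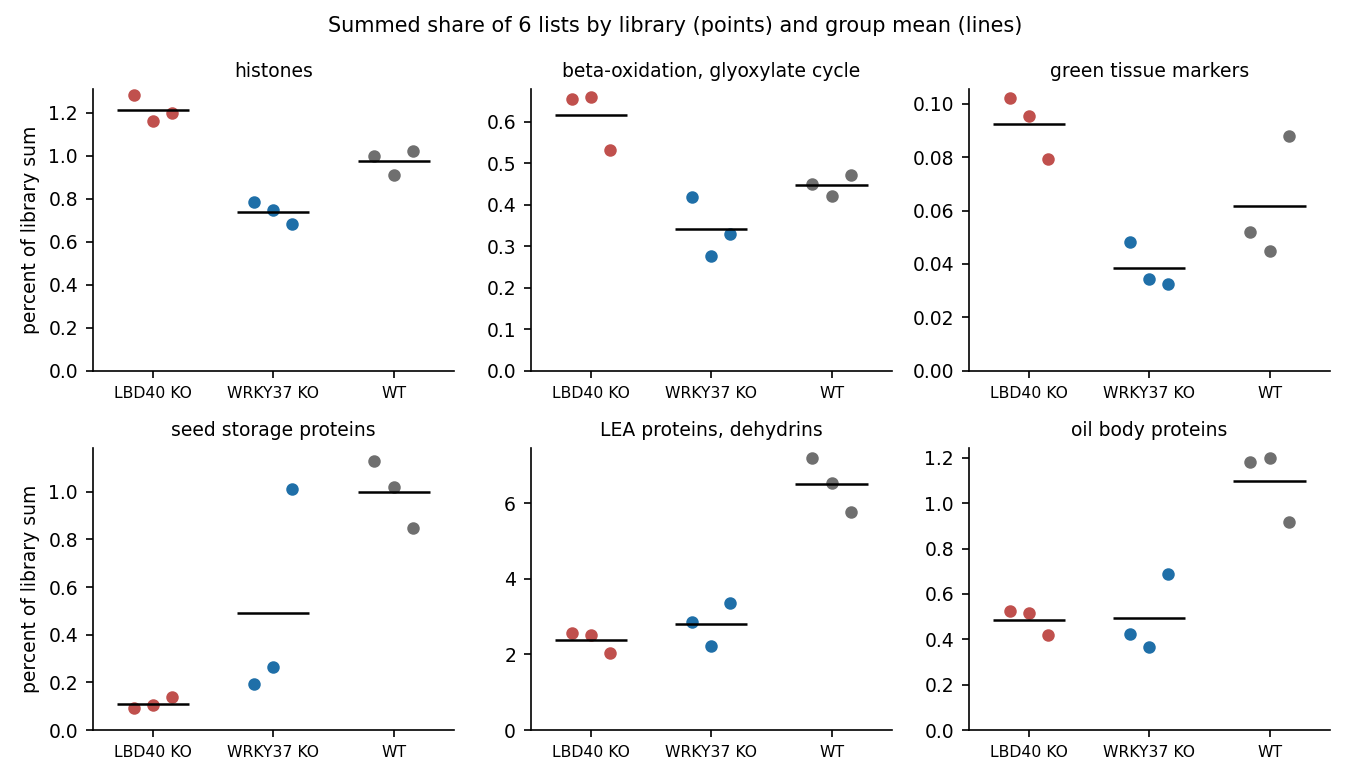
Summed share of 6 gene lists, as percent of the summed FPKM of each library (points) with the mean of each group (line) and each axis starting at 0. Histones, beta-oxidation and green tissue markers are higher in all 3 LBD40 knockout libraries than in any WRKY37 knockout library; storage proteins are lower, with WRKY37 knockout replicate 3 at 1.01%, and the oil body and LEA shares of the knockouts overlap below WT.

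Cell wall families differed in their pattern. Xyloglucan endotransglucosylase/hydrolases, which cut and rejoin the xyloglucan that ties cellulose together, had 7 higher and 3 lower of 17 (median 1.28), with 6 and 0 without LBD40 knockout replicate 1 or 2 or WRKY37 knockout replicate 2. In this family, xyloglucan endotransglucosylase-hydrolase 3 on chromosome 3 had 279, 264 and 271 FPKM against 115, 66.9 and 52.1 (log2 difference 1.86, SE 0.26, adjusted p = 0.0013). Endo-beta-mannanases had 3 higher and 3 lower of 13. Of the 3 higher members 2 were the chromosome 2 rows above. Those rows share the same 9 values and passed the filter only through the LBD40 knockout. The other higher member was Mannan endo-1,4-beta-mannosidase 1 on chromosome 12 (copy 3), at 11.9, 12.8 and 10.9 FPKM against 2, 2.5 and 1.82 (adjusted p = 0.000442). Mannan endo-1,4-beta-mannosidase on chromosome 10 (copy 2) was lower, at 8.84, 10.3 and 12.4 FPKM against 17.8, 18.1 and 22.5 (adjusted p = 0.00397). Expansins, which loosen walls without cutting them, had 2 higher and 3 lower of 15, and the larger count changed sides in 4 of the 17 alternatives. Pectin-modifying enzymes had 8 higher and 5 lower of 42, with 6 and 2 without LBD40 knockout replicate 1 or replicate 2. Glucan endo-1,3-beta-glucosidase on chromosome 7, of a family that breaks down callose, had 72.8, 81.2 and 75.3 FPKM against 38.4, 33.2 and 26.4 (log2 difference 1.22, SE 0.14, adjusted p = 0.000502).

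Genes that process RNA and start translation were lower in the LBD40 knockout. Of 98 tested splicing proteins none was higher and 33 were lower (median -0.373, from -0.442 to -0.26). U2 snRNP auxiliary factor large subunit on chromosome 2 (copy 1), which marks the end of introns, had 38.9, 43.5 and 46.1 FPKM against 67, 104 and 78.1 (log2 difference -0.92, SE 0.15, adjusted p = 0.00301). Translation factors had 1 higher and 21 lower of 72 (median -0.292). Eukaryotic translation initiation factor 5B on chromosome 3 (copy 1), which joins the ribosomal subunits, had 11.3, 12.7 and 15 FPKM against 24.8, 37.6 and 20.9 (log2 difference -1, SE 0.19, adjusted p = 0.00593). The higher one was Elongation factor 1-alpha on chromosome 11 (copy 2), with 83.9, 94 and 101 FPKM against 47.8, 22.3 and 23.6 (adjusted p = 0.0018). These counts, like those over all tested genes, fell when single libraries were left out. Without LBD40 knockout replicate 1 there were 6 lower splicing genes and 7 lower translation factors, beside 848 lower genes in all. Without its replicate 2 there were 7 and 11, beside 1120, and without WRKY37 knockout replicate 2 there were 15 and 13, beside 1397. The main fit had 2590 lower genes. Proteasome subunits had 1 higher and 7 lower of 50 (14% lower, beside 14.1% of all tested genes). For cytosolic ribosomal proteins the counts were 6 and 18 of 250, a smaller share than among all genes, and 3, 5 and 8 were lower without LBD40 knockout replicate 1, its replicate 2 and WRKY37 knockout replicate 2.

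**Figure D4:**
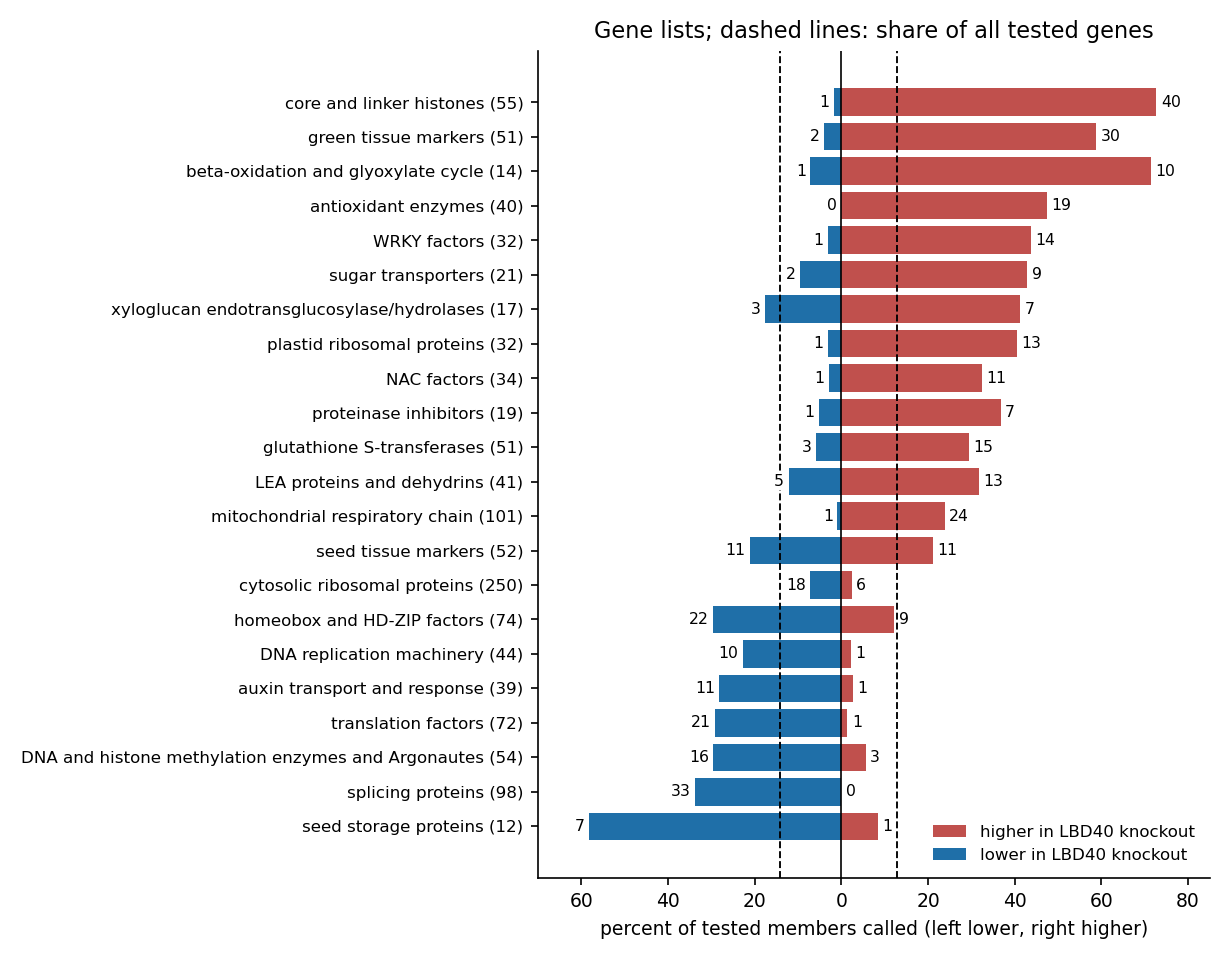
Percent of the tested members of 22 gene lists called lower (left) and higher (right) in the LBD40 knockout, with the number called beside each bar, the number tested in brackets and dashed lines at the 14.1 and 12.9% of all tested genes. Histones, green tissue markers and beta-oxidation genes reach furthest to the right, and storage and splicing proteins to the left.

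Among transcription factors, the WRKY family had 14 higher and 1 lower of 32 (median 0.484). WRKY transcription factor 11 on chromosome 8, with 238, 242 and 230 FPKM against 99.1, 62.4 and 73.9 (log2 difference 1.61, SE 0.16, adjusted p = 0.000244), was the member with the smallest p. WT lay with the WRKY37 knockout for this gene, at 102 FPKM on average. NAC factors had 11 higher and 1 lower of 34 (median 0.223), with 6 or 7 higher when any LBD40 knockout library or WRKY37 knockout replicate 2 was left out. NAC domain protein AY498713 on chromosome 4 had 96, 84.6 and 74.5 FPKM against 24.9, 15.2 and 9.72 (log2 difference 2.37, SE 0.3, adjusted p = 0.000752). AP2/ERF factors had 15 higher and 8 lower of 49, with sides changed in 1 alternative and 9 higher without LBD40 knockout replicate 1. Of the 15 higher members 4 passed the filter only through the LBD40 knockout. Ethylene-responsive transcription factor on chromosome 7 (copy 1) had 166, 154 and 102 FPKM against 22.8, 15.6 and 12.1 (log2 difference 3, SE 0.25, adjusted p = 9.81e-05). LOB domain factors had 5 higher and 2 lower of 15, but 1 and 1 without LBD40 knockout replicate 2, 3 and 1 without its replicate 1 and 2 and 1 without WRKY37 knockout replicate 2. Of the 5 higher members 2 passed the filter only through the LBD40 knockout, among them LOB domain-containing protein 38 on chromosome 1, with 7.83, 9.36 and 4.01 FPKM against 0.49, 0.09 and 0.

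Homeobox, bHLH and B3 families held more lower than higher genes. Homeobox and HD-ZIP factors had 9 higher and 22 lower of 74 (median -0.306), bHLH factors 9 and 16 of 76 (median -0.25) and B3 domain factors 1 and 6 of 28 (median -0.109). Without LBD40 knockout replicate 1 the lower counts of homeobox and bHLH factors were both 10, and the homeobox count was 13 without its replicate 2 and 14 without WRKY37 knockout replicate 2. In that last setting bHLH factors had 10 higher and 11 lower (median -0.158). The lower count of B3 factors was 3 without LBD40 knockout replicate 1 or replicate 2. B3 domain-containing transcription factor FUS3 on chromosome 6, which in Arabidopsis drives seed maturation, had 79.8, 77.2 and 83.9 FPKM against 110, 121 and 165 (log2 difference -0.69, SE 0.17, adjusted p = 0.0147). All 3 LBD40 knockout libraries lay below the WRKY37 knockout, and the call was lost without LBD40 knockout replicate 1 (adjusted p = 0.0546) or replicate 2 (adjusted p = 0.0564). Homeobox-leucine zipper protein HOX6 on chromosome 1 was higher, at 25.1, 22.3 and 16 FPKM against 2.74, 3.1 and 6.35 (log2 difference 2.17, SE 0.32, adjusted p = 0.00172).

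Abscisic acid holds seeds dormant, and 2 of its 26 tested genes were higher and 2 lower. ABSCISIC ACID-INSENSITIVE 5-like protein 7 on chromosome 1, named after a family of bZIP factors that act in abscisic acid responses, had 49.5, 54.6 and 47.3 FPKM against 7.45, 6.77 and 8.68 (log2 difference 2.58, SE 0.19, adjusted p = 5.34e-05). WT, at 30.8 FPKM on average, lay between the knockouts and differed from both. Abscisic acid receptor PYL8 on chromosome 8, a sensor of the hormone, was lower at 20.4, 24.1 and 22.7 FPKM against 39.4, 47.7 and 54.7 (log2 difference -1.03, SE 0.16, adjusted p = 0.00199). Type 2C protein phosphatases, a family that includes the phosphatases blocked by such receptors, had 11 higher and 11 lower of 68, and 6 were higher whichever LBD40 knockout library was left out. Protein phosphatase 2C on chromosome 6 (copy 3) had 28.3, 31.1 and 27.9 FPKM against 2.25, 3.49 and 2.38 (log2 difference 3.04, SE 0.4, adjusted p = 0.001).

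Gibberellin promotes germination, and its list had 4 higher and 5 lower of 27, with sides changed in 6 alternatives. Gibberellin-regulated protein on chromosome 1 had 103, 126 and 138 FPKM against 21.7, 24.2 and 12.9 (log2 difference 2.62, SE 0.29, adjusted p = 0.000445). Gibberellin-regulated protein on chromosome 4 was lower, at 6.76, 6.49 and 9.17 FPKM against 13.5, 24.9 and 16.4 (log2 difference -1.16, SE 0.23, adjusted p = 0.00684). Auxin transport and response genes had 1 higher and 11 lower of 39 (median -0.374), with 4 to 6 lower without LBD40 knockout replicate 1 or 2 or WRKY37 knockout replicate 2. The members with the smallest p were mostly auxin response factors, which bind the promoters of auxin-responsive genes. The auxin response factor 8B gene on chromosome 2 had 7.19, 8.08 and 8.09 FPKM against 13.4, 18.5 and 12 (log2 difference -0.81, SE 0.17, adjusted p = 0.00764). SAUR genes, small and quickly induced by auxin, had 6 higher and 2 lower of 31 (5 and 0 without LBD40 knockout replicate 2), and Small auxin up-regulated RNA37 on chromosome 3 had 71, 82.7 and 63.4 FPKM against 14.8, 10.4 and 16.1 (log2 difference 2.32, SE 0.18, adjusted p = 5.67e-05). Ethylene genes had 5 higher and 4 lower of 28 (sides changed in 6 alternatives) and jasmonate genes 5 and 1 of 25. The jasmonate counts were 3 and 1 without LBD40 knockout replicate 1 or 2 or any single WT library. 1-aminocyclopropane-1-carboxylate oxidase1 on chromosome 6, which makes ethylene, had 471, 505 and 354 FPKM against 183, 95.7 and 55.6 (log2 difference 2.13, SE 0.4, adjusted p = 0.00542). Protein TIFY 10A on chromosome 3, a repressor of jasmonate responses, had 9.04, 9.29 and 11.1 FPKM against 1.31, 1.8 and 1.83 (log2 difference 2.03, SE 0.16, adjusted p = 7.71e-05).

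Enzymes that handle reactive oxygen were higher in the LBD40 knockout: of 40 antioxidant genes 19 were higher and none lower (median 0.352), and 11 were higher without LBD40 knockout replicate 2. Respiratory burst oxidase-like protein on chromosome 1, which makes superoxide at the cell surface and shares the list's text pattern, had 49.3, 53.6 and 30.3 FPKM against 5.81, 4.08 and 4.95 (log2 difference 2.9, SE 0.31, adjusted p = 0.000358). Superoxide dismutase 3 on chromosome 11 had 75.5, 83.7 and 91.1 FPKM against 45.5, 43.2 and 41.2 (log2 difference 0.93, SE 0.11, adjusted p = 0.000709). Class III peroxidases of the wall had 7 higher and 1 lower of 24 (median 0.663), while the transferases that attach glutathione had 15 and 3 of 51 (median 0.351; 9 and 8 higher without LBD40 knockout replicate 1 and 2), with the chromosome 1 gene given above among the lower ones. Peroxidase on chromosome 2 (copy 18) had 24.4, 25.8 and 21.6 FPKM against 1.09, 1.03 and 2.96 (log2 difference 3.28, SE 0.29, adjusted p = 0.000133), and WT, at 29.3 FPKM on average, lay with the LBD40 knockout.

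Among defence proteins and secondary metabolism, pathogenesis-related proteins and defensins had 11 higher and 3 lower of 45 (8 and 1 without LBD40 knockout replicate 2). Proteinase inhibitors had 7 and 1 of 19 and phenylpropanoid and flavonoid enzymes 10 and 2 of 37. Cytochrome P450 enzymes had 16 and 11 of 81 and UDP-glycosyltransferases 15 and 7 of 85. In that order 24.4, 36.8, 27, 19.8 and 17.6% were called higher, beside 12.9% of all tested genes. The lower shares were 6.67, 5.26, 5.41, 13.6 and 8.24%, beside 14.1%. Without LBD40 knockout replicate 2 the higher counts were 4 for proteinase inhibitors, 6 for phenylpropanoid enzymes and 8 for glycosyltransferases, and without replicate 1 they were 6 and 9 for the latter lists. Cytochrome P450 enzymes had 1 lower gene without LBD40 knockout replicate 1 or replicate 2 and 3 without WRKY37 knockout replicate 2. Of their 16 higher members 3 passed the filter only through the LBD40 knockout. Glycosyltransferases had 12 higher and 12 lower without WRKY37 knockout replicate 3, with a median of -0.034. Phenylalanine ammonia-lyase on chromosome 9 (copy 2), the entry to phenylpropanoids, had 234, 304 and 191 FPKM against 109, 47 and 59.1 (log2 difference 1.81, SE 0.28, adjusted p = 0.00236). Chalcone synthase on chromosome 5, the entry to flavonoids, had 9.56, 8.29 and 12.5 FPKM against 2.1, 0.21 and 0.59 (log2 difference 2.6, SE 0.32, adjusted p = 0.000677). Small heat shock proteins had 6 higher and 1 lower of 30, although their median was -0.078. Of the 6 higher members 2 passed the filter only through the LBD40 knockout. The higher count was 1 without LBD40 knockout replicate 1 and 2 without its replicate 2 or WRKY37 knockout replicate 2.

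Transport and sugar genes completed the set. Sugar transporters had 9 higher and 2 lower of 21 (median 0.579), and Sugar transporter protein 1 on chromosome 2 had 96.4, 110 and 62.4 FPKM against 9.97, 7.65 and 7.35 (log2 difference 3.25, SE 0.24, adjusted p = 5.34e-05). Of 19 aquaporins, which carry water across membranes, 6 were higher and 2 lower. The tonoplast intrinsic protein 2.1 gene on chromosome 12 had 54.2, 61.1 and 53.2 FPKM against 11.7, 9.51 and 11.6 (log2 difference 2.26, SE 0.12, adjusted p = 8.79e-06), and WT lay with the WRKY37 knockout at 10.8 FPKM on average. The tonoplast intrinsic protein 2.3 gene on chromosome 6 had 35.3, 27.4 and 22.4 FPKM against 5.25, 8.58 and 2.95 (log2 difference 2.22, SE 0.33, adjusted p = 0.0018), and WT lay with the LBD40 knockout at 30.2 FPKM. Amino acid, peptide and nitrate transporters had 16 higher and 5 lower of 59, and 10 higher without LBD40 knockout replicate 2. Genes of raffinose sugars, which protect dry seeds, had 4 higher and none lower of 10, with 2 higher without LBD40 knockout replicate 1 or replicate 2. Alpha-galactosidase on chromosome 4, which breaks these sugars down, had 35.9, 37.3 and 30.8 FPKM against 13, 8.62 and 8.58 (log2 difference 1.71, SE 0.16, adjusted p = 0.000187). Among starch enzymes, Beta-amylase on chromosome 9 was higher, with 305, 293 and 234 FPKM against 109, 104 and 79.7 (log2 difference 1.5, SE 0.18, adjusted p = 0.00068). Proteases had 26 higher and 16 lower of 122, with 17 and 3 without LBD40 knockout replicate 1 and 16 and 9 without replicate 2. Of these proteases, 4 higher and 1 lower passed the filter only through the knockout where they were higher. Vacuolar-processing enzyme on chromosome 8 (copy 14), of a family that matures storage proteins, was lower at 136, 154 and 148 FPKM against 289, 346 and 373 (log2 difference -1.19, SE 0.11, adjusted p = 0.000202). GDSL esterases had 11 higher and 3 lower of 33 (9 and 6 without WRKY37 knockout replicate 3), lipid-transfer proteins 11 and 6 of 40 (7 and 3 without LBD40 knockout replicate 1, 6 and 3 without replicate 2), and fermentation enzymes 6 and 2 of 20. The last list had 2 higher genes without LBD40 knockout replicate 1 and 3 without its replicate 2 or WRKY37 knockout replicate 2.

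Genes called between the knockouts and in opposite directions against WT numbered 92 (0.501% of tested genes). Of these, 75 were higher than WT in the LBD40 knockout and lower in the WRKY37 knockout, and 17 the reverse. PAR1-like protein on chromosome 10 had 67.2, 60 and 57.1 FPKM in the LBD40 knockout, 28.2, 25.8 and 30.8 in WT and 14.6, 13.4 and 12.5 in the WRKY37 knockout (log2 difference between the knockouts 2.11, SE 0.12, adjusted p = 1.03e-05). Chitinase on chromosome 4, which cuts fungal walls, had 22.3, 21.2 and 21.5 FPKM, 13.3, 8.88 and 10.8 in WT and 3.24, 2.8 and 2.15 (log2 difference 2.61, SE 0.17, adjusted p = 2.69e-05). The 3 groups did not overlap for either gene, and both were chosen for their opposite calls. In the reverse direction, Calcium-dependent protein kinase on chromosome 12 (copy 2), a relay of calcium signals, had 37.5, 36.8 and 49.8 FPKM in the LBD40 knockout, 85, 63.3 and 70.8 in WT and 166, 140 and 141 in the WRKY37 knockout (log2 difference -1.84, SE 0.15, adjusted p = 8.55e-05). A second row of that description on the chromosome, copy 1, had 47, 52.6 and 50.8, 81.5, 68.1 and 65.6, and 144, 124 and 128 FPKM in the same order (log2 difference -1.38, SE 0.11, adjusted p = 8.55e-05).

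**Figure D5:**
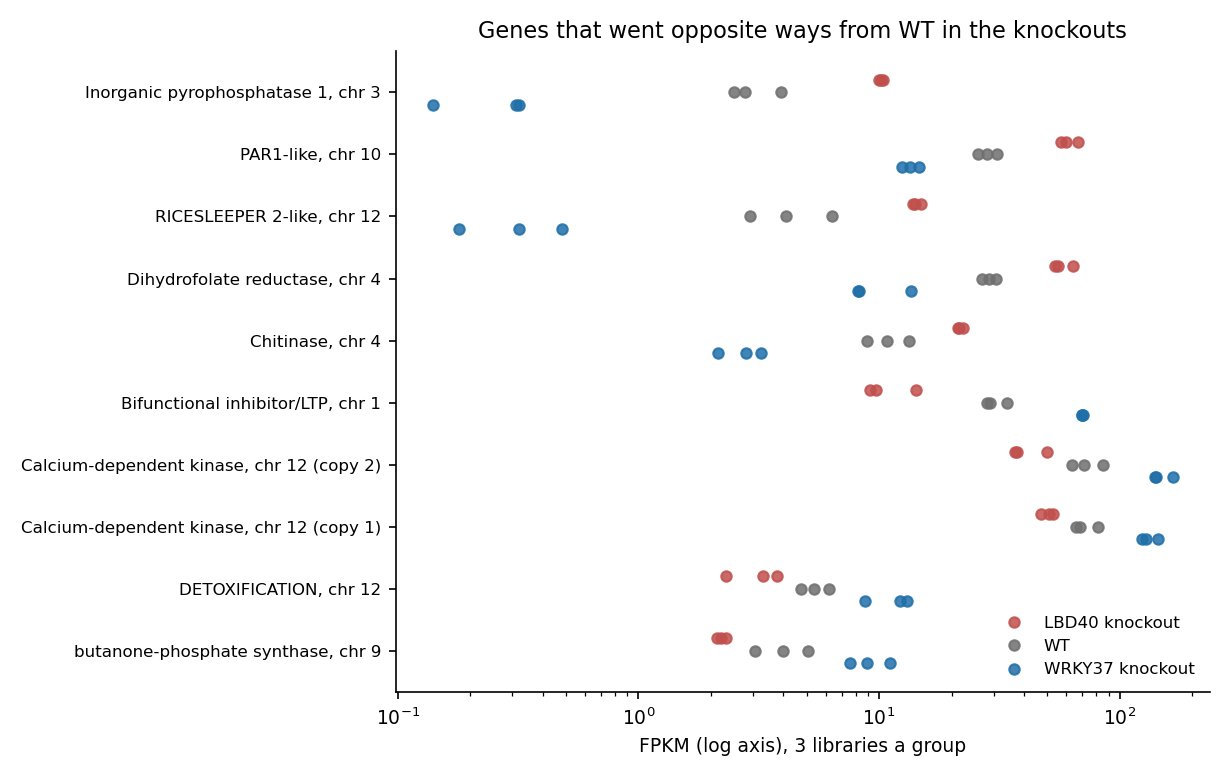
Levels in FPKM on a log axis of 10 genes called in opposite directions against WT, with 1 point for each of the 3 libraries of the LBD40 knockout, WT and the WRKY37 knockout. For the upper 5 genes the LBD40 knockout is highest and for the lower 5 it is lowest. WT lies between the knockouts in each, which follows from choosing genes with opposite calls.

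Called genes were spread over all chromosomes, with 24.3 to 29.9% of tested genes called on chromosomes 1 to 12 and 1 of 74 on unplaced sequence. Of the genes lower by at least 2 on the log2 scale, 14 of the 69 lay on chromosome 12, which holds 1188 of the tested genes (6.48%), and 11 on chromosome 9 (7.24%). None lay on chromosome 6 (9.04%). Of those 14 genes 9 were lower than WT in the LBD40 knockout and 1 was higher than WT in the WRKY37 knockout. Besides cellulose synthase copy 2, BolA protein, NAP1-related protein 2 and the tyrosine sulfotransferase-like gene, they included F-box domain, Leucine-rich repeat domain, L domain-like protein on chromosome 12 (copy 2), listed at 0 in the LBD40 knockout and at 5.51, 6.36 and 5.21 FPKM in the WRKY37 knockout. Of the genes higher by at least 2, 17 of 179 lay on chromosome 12, and no test of these counts was made. Shortened IDs hide where these genes lie along the chromosome, so whether they are neighbours was not tested.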

How the data were processed

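RNA of imbibed tomato seeds was sequenced from libraries made with a SMARTER mRNA-Seq kit, per the labels' protocols. The submitters' processing notes name TopHat2, HISAT2, StringTie and Cufflinks; no source used here gives their versions, a genome build or an annotation. The authors deposited 1 table whose header states no unit and from which the counting step is not known. Its values were taken as FPKM that the authors made and deposited, since library sums differ and the tools named report that unit; TPM over a larger gene set cannot be told apart. In the deposited table the column of WT replicate 1 touches the gene names, so its unit is recorded as other; it was read by position and treated as FPKM too. IDs are shortened to 8 characters.

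The main test was limma-trend (limma 3.58.1, R 4.3.3) on log2(FPKM + 1) of genes with a mean of at least 1, with all 9 libraries and genotype as the only term, and was checked on simulated data. The added 1 shrinks the differences of low genes. Gene lists are text patterns searched in descriptions, without set tests; 22 tested genes share all values with another row. How reads of near-identical or overlapping genes were split, and whether strand was used, is not stated, so members of families such as histones are uncertain one by one. The members and lists were chosen with earlier results of these data known, and patterns of 25 lists were corrected after the descriptions had been read. Single shares were compared by exact permutation. Named genes are those described as LBD40 or WRKY37; the 10 higher and 10 lower with the largest log2 difference, no overlap, a mean of at least 5 and an informative description; the 5 each way with the largest difference in level; up to 4 per list of at least 3 called members, by adjusted p; 5 each way opposite against WT; and up to 5 each way listed at 0 in one knockout. Not every named gene is described. Alternatives are under the closing section. Sequences were not used here.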

Additional observations from a re-analysis of the deposited data

Results flagged for a closer look

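The 10 genes below differed between the knockouts by the direct test of that difference (limma, adjusted p below 0.05), and each was also called against WT in both knockouts, in opposite directions. Higher in the LBD40 knockout were Inorganic pyrophosphatase 1 on chromosome 3 (copy 1), with a log2 difference of 3.16, PAR1-like protein on chromosome 10 with 2.11, and the RICESLEEPER 2-like gene on chromosome 12 (copy 2), of a transposase-derived family, with 3.54. Dihydrofolate reductase on chromosome 4 (copy 1), an enzyme of folate metabolism, had 2.44 and Chitinase on chromosome 4 had 2.61. Lower in the LBD40 knockout were the Bifunctional inhibitor/plant lipid transfer protein gene on chromosome 1 with -2.58, Calcium-dependent protein kinase on chromosome 12 with -1.84 for copy 2 and -1.38 for copy 1, and Protein DETOXIFICATION on chromosome 12 (copy 2), of a family of efflux carriers, with -1.58. The 4-dihydroxy-2-butanone 4-phosphate synthase gene on chromosome 9, of riboflavin synthesis, had -1.65. With 3 libraries in each group, no test for single outlying libraries was made.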

How the results depend on the processing

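The number of called genes (4953) moved by over 1.5 times in a fit of the 6 knockout libraries alone (3147, of which 1323 lower) and with a minimum log2 difference of 1 (1499, with 1079 higher and 420 lower). Leaving out each library in turn gave 2282 to 5192 called genes, 1418 to 2577 higher and 848 to 2852 lower. It was lowest without LBD40 knockout replicate 1, and without LBD40 knockout replicate 2 (2538) or WRKY37 knockout replicate 2 (3275) it also fell by over 1.5 times; these fits have fewer samples. Without WRKY37 knockout replicate 1, which stood nearer to the LBD40 knockout, it was 5192, and without replicate 3 it was 4838. A pseudocount of 0.1, equal library totals, quantile normalization, median-ratio scaling, a minimum mean of 5 and no low-value filter left the count between 4134 and 6087. The share of higher genes among those called was 47.7%, ran from 43.3 to 53.3% over these settings, and was 58% in the fit of 6 libraries, so which direction held more genes was not stable. Of 275 named and called genes, 40 lost the call in at least 1 setting, the minimum log2 difference aside, and none changed direction. Of 63 lists, 39 kept the same larger count in all 17 settings, 5 had a tie in some, 5 were tied as reported and 14 changed sides in at least 1. With the replicate number as a block 4117 genes were called, 2023 higher and 2094 lower; numbers were not taken as pairs, since the deviations of same-numbered knockout libraries correlated at 0.0389, -0.0824 and -0.0384. Description patterns of 25 lists were corrected after the data were seen; as first written, storage proteins had 3 higher and 7 lower of 16, plastid ribosomal proteins 17 and 6 of 55 and pathogenesis-related proteins 24 and 18 of 156. Relative depth, of 79.5 to 100% of the deepest library, limits low genes most.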

Other observations

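RNA gene rows, which the named lists leave out, were also measured: 1033 were tested and 196 called between the knockouts. Among protein-coding genes with no informative description, Unknown protein on chromosome 4 (copy 343) had the largest negative difference of all tested genes, at 0.0133 FPKM in the LBD40 knockout and 54.7 in the WRKY37 knockout on average (38.5 in WT), a log2 difference of -5.78 (limma adjusted p = 1.03e-07). Unknown protein on chromosome 7 (copy 290) was listed at 0 in the LBD40 knockout, with a mean of 48.5 FPKM in the WRKY37 knockout and 25.7 in WT. These genes were chosen after their values were seen. Ripe fruit markers, read as a check for other tissue, lay between 0.00328 and 0.00381% of the library in the LBD40 knockout and between 0.0018 and 0.00238% in the other knockout, and 2 of 6 were at 0 in all 6 libraries.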
